A study of Mus musculus with 28 samples.

Results

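The genes described here are 10 core genes of the Notch pathway: the receptors Notch1, Notch2 and Notch3, the ligands Jag1, Jag2 and Dll1, the DNA-binding factor Rbpj, and the target genes Hes1, Hey1 and Heyl. They were picked by symbol as core genes of the pathway, with earlier results of these data known, and all 10 were listed in each of the 3 gene tables of the series, which hold 56691 genes (bulge), 47243 genes (hair germ, SHERRY2) and 57010 genes (hair germ, SMART-seq). Another 49 genes of the pathway were listed beside them, for 59 in all. RNA came from stem cells sorted by flow cytometry from the skin of mice at postnatal day 69, either wild-type (WT) or carrying a conditional Alkbh5 knockout (cKO). Alkbh5 is an RNA demethylase that acts on m6A. Bulge stem cells, the long-lived reserve of the hair follicle, were profiled by SHERRY2, in which a transposase cuts and tags the hybrid of RNA and cDNA. Hair germ stem cells, which sit below the bulge and divide first when a hair cycle starts, were profiled by SHERRY2 and, in a separate set, by SMART-seq, which amplifies full-length cDNA. Each of these 3 datasets had 2 WT and 2 cKO mice, so 12 RNA-seq libraries were used, and the 16 m6A libraries among the 28 samples were not analysed here. The sources used here do not give the Cre driver, the deleted exon, the strain, the sorting gates or the sex of the mice. The labels give separate mouse numbers and no more on the origin of replicates, so p-values measure the spread between these libraries, which may be in part technical.

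Notch receptors are held at the cell surface and are bound by Jagged and Delta-like ligands on a neighbouring cell. Binding lets ADAM proteases and then gamma-secretase cut the receptor, and the freed intracellular part enters the nucleus, joins Rbpj and Mastermind-like cofactors, and switches on genes of the Hes and Hey families. In skin, Notch signalling is known for driving epidermal differentiation and for keeping hair follicle cells in their lineage.

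The levels below are CPM, read counts relative to library size, with library sizes scaled by TMM, a method that removes differences in composition between libraries. Bulge libraries held 14676168 to 21187283 reads in genes, SMART-seq libraries 9001396 to 14416601, and hair germ SHERRY2 libraries 488648 to 2317407. Alkbh5 itself was at 107 and 96.1 CPM in the bulge WT libraries and at 4.21 and 2.38 in the knockouts. The hair germ SHERRY2 libraries had 75.0 and 53.6 against 16.7 and 9.29. In SMART-seq it was at 136 and 94.2 against 83.5 and 106, so these last labels were not borne out and the libraries are called "labelled cKO" below. Endothelial markers, whose cells use Notch heavily, summed to 1.11 to 6.18 CPM in the bulge and 3.24 to 3.76 in SMART-seq over 9 genes, with Cldn5 at 0 in 3 of the 4 bulge libraries and in all 4 SMART-seq libraries. Mural cell markers summed to 75.4 to 177 CPM in the bulge, of which Cspg4 alone made up 70.8 to 169. In hair germ SHERRY2 the 95th percentile of 1907 olfactory and vomeronasal receptor genes, which are used mainly in the nose, was 7.55 to 17.9 CPM, against 0 in both other datasets. Levels up to that height cannot be told apart from background there. The height is in CPM and not per kilobase, so it may be too low for long genes such as Rbpj (12750 exonic bases). The 9 endothelial markers summed to 54.6 to 123 CPM there. Cd34, a marker of the bulge rather than the hair germ, was at 14.5 to 44.6 CPM in hair germ SHERRY2 and at 95.1 to 461 in SMART-seq, against 136 to 366 in the bulge. The 6 hair germ markers summed to 3822 to 6547 CPM in SMART-seq. Their sums were 6081 to 12930 in hair germ SHERRY2 and 7707 to 9800 in the bulge. The hair germ name of the SMART-seq libraries thus rests on the labels and was not borne out by these markers. The 3 tables were made separately, so levels are set side by side across them without a test. In bulk RNA, fewer cells of a type and less RNA per cell cannot be told apart.

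RefSeq promoter windows in GRCm38.p6 were given for 7 of the 10 genes. Hes1, Hey1 and Heyl had none. Windows of the 3 receptors are shown because all 3 receptors were higher in every bulge cKO library than in every bulge WT library. Each covers the 250 bases before the RefSeq start, 5′ to 3′ on the strand of the gene, and capitals mark the GC box GGGCGG, the core of Sp-family binding sites, on either strand. The Notch1 window lies at chr2:26503823-26504072 on the minus strand, that of Notch2 at chr3:98013288-98013537 on the plus strand, and that of Notch3 at chr17:32166891-32167140 on the minus strand.
Notch1: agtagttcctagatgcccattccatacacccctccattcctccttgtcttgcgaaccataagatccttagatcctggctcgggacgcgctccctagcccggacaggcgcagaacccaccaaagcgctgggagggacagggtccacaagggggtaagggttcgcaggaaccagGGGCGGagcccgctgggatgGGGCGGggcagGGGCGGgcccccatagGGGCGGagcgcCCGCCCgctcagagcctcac
Notch2: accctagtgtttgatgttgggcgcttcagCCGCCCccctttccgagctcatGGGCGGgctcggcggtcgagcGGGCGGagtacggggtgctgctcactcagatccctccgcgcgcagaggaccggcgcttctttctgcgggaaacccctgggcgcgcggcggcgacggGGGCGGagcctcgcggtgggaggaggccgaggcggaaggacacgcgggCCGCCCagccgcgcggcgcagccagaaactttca
Notch3: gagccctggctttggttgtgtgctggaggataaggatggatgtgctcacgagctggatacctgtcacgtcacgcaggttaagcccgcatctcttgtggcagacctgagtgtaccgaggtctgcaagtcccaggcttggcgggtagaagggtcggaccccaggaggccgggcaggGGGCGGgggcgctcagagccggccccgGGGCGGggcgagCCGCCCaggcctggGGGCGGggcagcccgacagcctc
The Notch1 and Notch2 windows each held 5 GC boxes and the Notch3 window 4. In Notch1 all of them began within the last 78 bases before the start, and in Notch3 within the last 76, whereas in Notch2 they were spread from 221 to 34 bases before it. Of 32851 windows of this length, 32.7% held at least 1 GC box and 4.09% held 4 or more. Neither the RBPJ core TGGGAA (in 21.6% of windows) nor the AP-1 site TGANTCA (6.75%) was found on either strand of these 3 windows. The same held for CACGTG (6.02%), an E-box that Hes and Hey factors can bind. Other sites of these factors were not searched for, so their absence is not shown. Among the other members, the Jag2 window held 5 GC boxes, of which 2 overlapped, and the first of the Rbpj windows held 2 RBPJ cores, beginning 149 and 65 bases before the start. No motif of the 4 was found in the Jag1 window. A match is a description of letters and not of binding.

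Notch1, the main receptor of the epidermal lineage, rose in bulge cKO cells and was the 1 member that passed the test. It was at 372 and 236 CPM in WT and at 977 and 970.5 CPM in cKO, from read counts of 7287 and 3316 against 15784 and 20406. Both cKO libraries stood far above both WT libraries and close to each other, while the WT libraries differed from each other more. The group means were 304 ± 96.6 and 974 ± 4.48 CPM (mean ± SD, n = 2 each), a ratio of 3.20. The log2 fold change was 1.68 (SE 0.24, adjusted p = 0.0161, edgeR quasi-likelihood with Benjamini-Hochberg over 15672 genes), which placed Notch1 131st by p and at percentile 98.1 by log2 fold change. The deposited FPKM of the authors were 24.2 and 15.9 in WT and 72.6 and 72.4 in cKO, in the same order. Over 8 other settings the value ran from 1.38 to 2.04 and passed each time, the lowest being without WT mouse 2 (adjusted p = 0.0215, edgeR). That mouse had an Xist level of 6.19 CPM, against 1522 to 2766 in the other bulge libraries. Other gene groups also separated the bulge genotypes. The 11 immediate early genes, which respond to stimulation and to tissue dissociation, summed to 40416 and 24371 CPM in WT and to 12255 and 3077 in cKO, and 9 immune markers to 277 and 216 against 92.7 and 50.8. The 10 bulge stem cell markers summed to 37053 and 34063 CPM in WT and to 26588 and 30271 in cKO. The 5 sebocyte markers summed to 458 and 360 against 706 and 902. The 7 suprabasal markers were apart by little, at 5619 and 5896 against 5503 and 5156. Hair germ, endothelial, mural, fibroblast and melanocyte markers overlapped. The part of these groups in the Notch1 values was not tested. The gene (ENSMUSG00000026923) lies at 26347915 to 26406675 on the minus strand of chromosome 2 in the bulge table, which names no build. 0610009E02Rik on the opposite strand had 19 reads in each WT library and 50 and 75 in cKO, and the sources used here do not say whether counting used strand.

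Notch2 and Notch3 were also above WT in both cKO libraries of the bulge, by less, and neither passed. Notch3 (ENSMUSG00000038146, chromosome 17) was at 61.2 and 68.1 CPM in WT and at 101 and 97.0 in cKO, with a log2 fold change of 0.61 (SE 0.15, adjusted p = 0.0713, edgeR). It was the member nearest to the threshold without passing. DESeq2 (adjusted p = 0.0184) and edgeR without a filter on low counts (adjusted p = 0.0272) called it. Notch2 (ENSMUSG00000027878, chromosome 3) was at 94.0 and 80.2 CPM in WT and at 119 and 112 in cKO (log2 0.41, SE 0.15, adjusted p = 0.197, edgeR). The lowest cKO library was above the highest WT library for all 3 receptors, in a dataset where 24.7% of all genes tested were above in this way and 50.9% did not overlap in either direction. Notch4, a receptor of endothelial cells, was counted with 16 and 15 reads in the WT libraries and 11 and 4 in the cKO libraries.

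Notch1 also made up a larger share of the receptor transcripts in the bulge cKO libraries. Per kilobase of exon, Notch1 made up 61.6 and 51.1% of the 3 summed receptors in the bulge WT libraries and 74.5 and 75.3% in cKO. Its shares by SHERRY2 of the hair germ were 42.1 and 40.2% in WT and 62.5 and 58.8% in cKO. In SMART-seq its share was 52.0 and 57.2% (WT) and 50.6 and 52.5% (labelled cKO). Both SHERRY2 datasets thus had the 2 cKO libraries above the 2 WT libraries, and the SMART-seq groups overlapped. Among single genes on TMM-scaled CPM, cKO was above in this way for 24.7% in the bulge and 10.7% in hair germ SHERRY2. These rates cover unlike sets, 15672 genes past a filter on low counts and 38953 genes under a looser filter. The rate for shares was not worked out, and the shares restate the Notch1 levels in part. A share within a library does not depend on the scaling between libraries. No test was made on these shares.

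**Figure D1:**
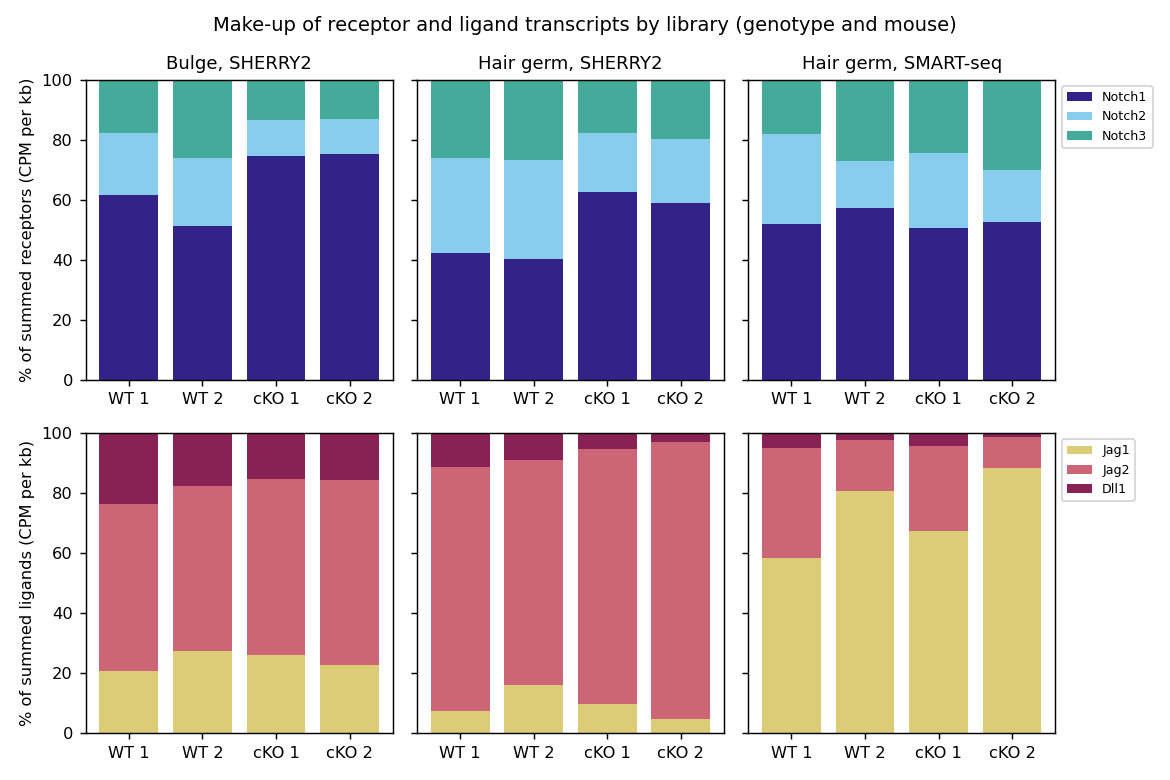
Share of each receptor (top row) and each ligand (bottom row) in the summed CPM per kilobase of its family, in % per library, with 1 stacked bar per mouse. Notch1 made up 74.5 and 75.3% of the receptors in the bulge cKO libraries against 61.6 and 51.1% in WT, and the larger ligand was Jag2 in both SHERRY2 datasets and Jag1 in SMART-seq.

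Ligand transcripts did not pass in the bulge. Jag2, the most abundant member per kilobase there, was at 735 and 639.5 CPM in WT and at 709 and 832 in cKO (log2 0.17, SE 0.19, adjusted p = 0.695, edgeR). Jag1 was at 229 and 265 CPM in WT and at 262 and 255 in cKO (log2 0.07, SE 0.15, adjusted p = 0.857, edgeR). Both Jagged genes had overlapping groups. Dll1, the ligand of the Delta-like kind, was at 189.7 and 123 CPM in WT and at 112 and 128 in cKO (log2 -0.38, SE 0.22, adjusted p = 0.396, edgeR). WT mouse 1 stood above the other 3 libraries, and without it the log2 value was -0.04. Jag1 lies on chromosome 2, Jag2 on chromosome 12 and Dll1 on chromosome 17.

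Rbpj, which carries the receptor signal onto DNA, was nearly level in the bulge. Its values were 70.8 and 70.1 CPM in WT and 72.5 and 65.1 CPM in cKO (log2 -0.04, SE 0.15, adjusted p = 0.930, edgeR). The spread between mice was small, and the groups overlapped.

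The target genes did not pass either, and the one with a sizeable level ran opposite to the receptors. Hes1, a repressor and the best known Notch target, was at 146 and 87.1 CPM in WT and at 82.5 and 55.3 CPM in cKO. Both cKO libraries were below both WT libraries, as was the case for 26.2% of all genes tested, but WT mouse 2 and cKO mouse 1 were close. The log2 fold change was -0.76 (SE 0.28, adjusted p = 0.189, edgeR). Leaving out the filter on low counts brought it past the threshold (adjusted p = 0.00237, edgeR), as did leaving out cKO mouse 1 (-1.05, adjusted p = 0.000942, edgeR), and without WT mouse 1 it was -0.35 (adjusted p = 0.529, edgeR). Hes1 ranked the 4 libraries in the same order as the summed immediate early genes and the summed immune markers given above, and the part of either list in the Hes1 values was not tested. Hey1, another repressor of this class, was counted with 12 and 38 reads in the WT libraries and 13 and 27 in the cKO libraries (log2 -0.63, SE 0.81, adjusted p = 0.734, edgeR). Heyl was counted with 2 and 3 reads in the WT libraries and 0 in both cKO libraries, which is at the level that a count of 0 allows (3 reads), so it was not tested and no fold is given. Hes1 lies on chromosome 16, Hey1 on chromosome 3, Heyl on chromosome 4 and Rbpj on chromosome 5.

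In the bulge, 9 of the 10 members passed the filter on low counts, and 1 rose, 0 fell and 8 did not pass. Of all 15672 genes tested, 3.04% passed, 1.44% higher and 1.6% lower. The median log2 fold change of the 9 tested members was 0.07, beside -0.01 for all genes. By role, the median was 0.61 over the 3 receptors, 0.07 over the 3 ligands and -0.70 over the 2 tested targets. That last value is the midpoint of Hes1 and the low-count Hey1, and Nrarp, a target outside the members, was at 0.19. Raw library sizes in place of TMM put every bulge value 0.16 higher on the log2 scale, which turns the direction of Rbpj and of no other tested member.

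**Figure D2:**
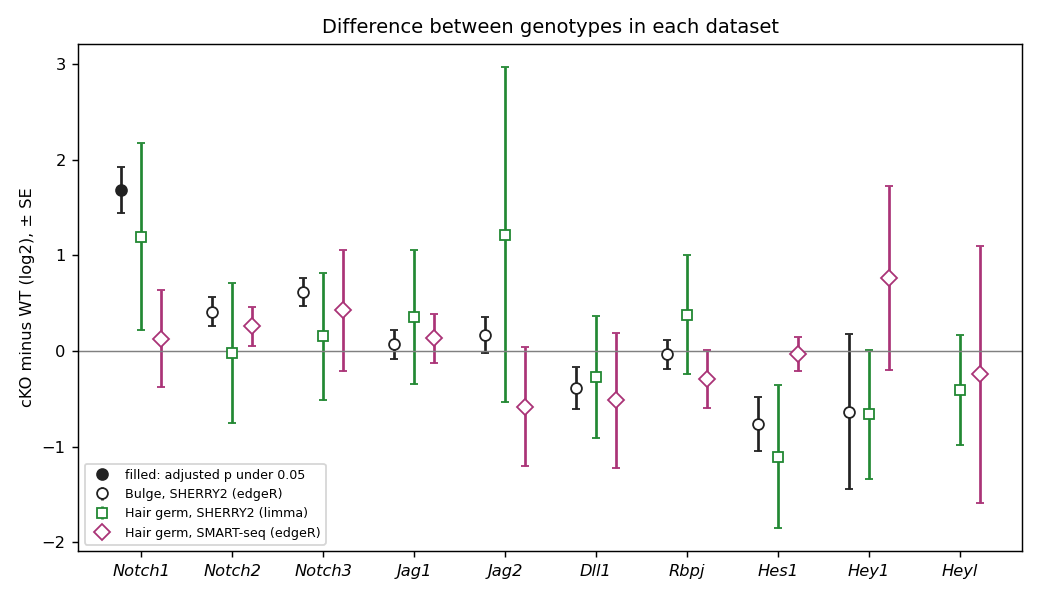
Difference between genotypes of each member (cKO minus WT, log2, ± SE) in the bulge (circles, edgeR), hair germ SHERRY2 (squares, limma on log2 of the normalized count + 1) and hair germ SMART-seq (diamonds, edgeR, libraries labelled cKO). Notch1 in the bulge, at 1.68, is the one filled symbol, which marks an adjusted p under 0.05. Heyl was not tested in the bulge.

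The order of the members by level, compared per kilobase of exon, was led by ligands. In bulge WT it ran Jag2 (98.7 CPM per kilobase), Hes1 (57.2), Jag1 (42.4), Dll1 (37.1), Notch1 (21.4), Notch2 (8.08), Notch3 just under it, Rbpj (5.53), Hey1 (0.508) and Heyl (0.0309), as means of 2 mice. The ranges of Hes1 and Jag1, of Jag1 and Dll1, and of Notch2 and Notch3 overlapped, and the other neighbours did not. In bulge cKO, Notch1 stood in the second place, after the fifth in WT, with 68.4 CPM per kilobase behind Jag2 with 111, and no range overlapped theirs. Jag1 (44.4), Hes1 (33.8) and Dll1 (28.4) followed, of which Hes1 and Dll1 overlapped. In hair germ SHERRY2, Jag2 (82.9) and Hes1 (64.1) led the WT order and overlapped. Behind them came Jag1 (11.0), Dll1 (11.0), Notch1 (10.2), Notch2 (7.94) and Notch3 (6.49), each overlapping the next. Heyl (3.02), Rbpj (2.79) and Hey1 (2.43) came last, also overlapping in turn. The part of background in these low levels was not tested. In SMART-seq WT the first was Jag1 (77.3), followed by Notch1 (56.9), Hes1 (37.7), Jag2 (31.2), Notch3 (25.0) and Notch2 (20.5), each overlapping the next. Hey1 and Heyl were the lowest members in both the bulge and SMART-seq WT groups.

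**Figure D3:**
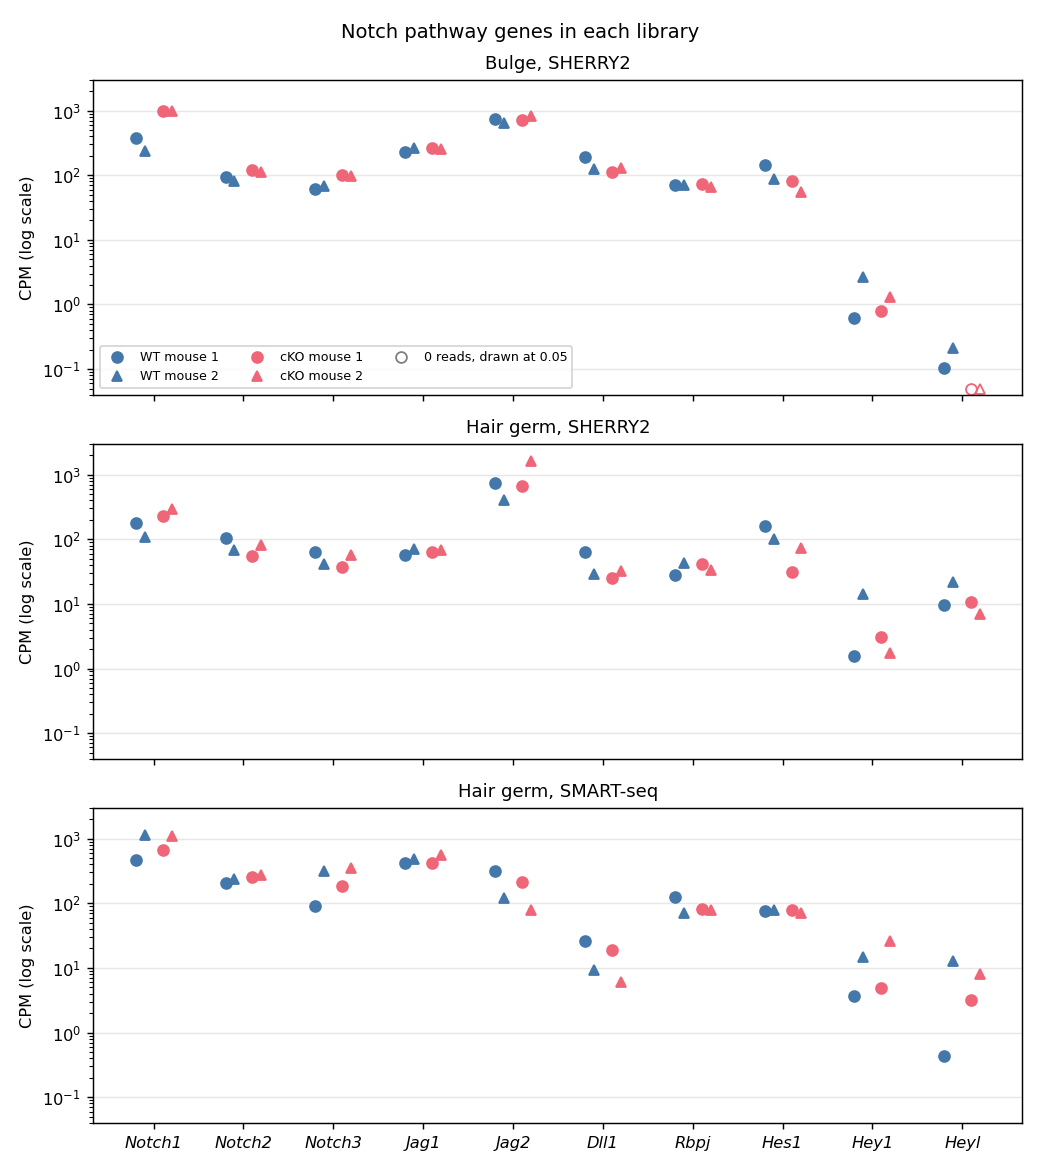
Level of each member in each of the 12 libraries, in CPM on a log scale, with WT in blue, cKO in red, mouse 1 as circles and mouse 2 as triangles. In the bulge, both cKO libraries lay above WT for Notch1 (977 and 970.5 against 372 and 236 CPM), whereas in SMART-seq Jag2 and Dll1 went with the mouse number in both groups. Open symbols at 0.05 stand for 0 reads.

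In hair germ SHERRY2 no member passed, although Notch1 and Hes1 lay on the same sides as in the bulge. The values tested were the deposited counts divided by a size factor, called normalized counts. Notch1 was at 224 and 96.4 normalized counts in WT and at 274 and 416 in cKO, so that both cKO libraries were above both WT libraries. Its difference on the log2(normalized count + 1) scale was 1.19 (SE 0.98, adjusted p = 0.970, limma with Benjamini-Hochberg over 38953 genes). Hes1 was at 198 and 90.1 normalized counts in WT and at 37.4 and 101 in cKO (log2 -1.10, SE 0.75, adjusted p = 0.970, limma). Its groups overlapped on this scale, and on TMM-scaled CPM (159 and 102 against 31.6 and 72.0) they did not. The cKO mouse 1 library, the lowest for Hes1, had the lowest summed immediate early genes, 15394 CPM against 20488 to 38406 in the others. The full order of the bulge did not recur on TMM-scaled CPM. There cKO mouse 2 was above WT mouse 2 for these genes (25936 against 20488) and below it for Hes1. The summed immune markers were lowest in cKO mouse 2, at 317 CPM against 452 in cKO mouse 1. The part of either list in the Hes1 values was not tested. On normalized counts, 3 members had both cKO libraries above both WT libraries (Notch1, Jag1 and Rbpj) and 0 had them below, beside 16.4% of all genes tested in each direction and 32.8% in either. On TMM-scaled CPM, Notch1 was the 1 member above (10.7% of genes) and Hes1 the 1 member below (21.4%), with 32% in either direction. Which members overlap therefore turns on the scaling, and Notch1 was above on both scales. Genes near background, Hey1 and Heyl among them, count in these rates, so the rates need not hold for genes at the level of Notch1.

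Jag2 in this dataset had 1 library far above the other 3. Its normalized counts were 934 and 356 in WT and 799 and 2250.3 in cKO, with a log2 difference of 1.22 (SE 1.75, adjusted p = 0.976, limma). Without cKO mouse 2 the difference was 0.47. Jag1 was at 70.5 and 63.2 normalized counts in WT and 75.5 and 97.2 in the cKO libraries (log2 0.36). Rbpj was at 35.2 and 37.9 against 49.1 and 46.5 (log2 0.38). For both genes the groups were apart on this scale and overlapped on TMM-scaled CPM. Dll1 (-0.27), Notch2 (-0.02) and Notch3 (0.15) had overlapping groups on both scales. Hey1 was counted with 2 and 8 reads in the WT libraries and 5 and 3 in the cKO libraries, and Heyl 12 and 12 against 17 and 12, all near the height of the olfactory and vomeronasal receptor genes. Their log2 differences were -0.66 and -0.40. The deposited size factors put every cKO minus WT value 0.30 higher on the log2 scale than TMM on the recovered reads. With TMM and edgeR, Notch1 was at 0.86, Jag2 at 0.98 and Hes1 at -1.34, and Notch3 turned to -0.17. The authors' deposited table gives log2 fold changes of 1.10 for Notch1, 1.24 for Jag2 and -1.06 for Hes1, each with an adjusted p-value of 1.00.

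WT mouse 1 of this dataset stood apart in epidermal genes. Its 7 suprabasal markers summed to 16099 CPM, against 1987 to 5815 in the other libraries. It was also the highest for Notch2, Notch3, Dll1 and Hes1 on TMM-scaled CPM. Without it the log2 difference of Notch1 was 1.80 and that of Hes1 -0.54. The part of these cells in the member values was not tested. In all, 0 of 10 members passed in limma, where 0.0077% of all genes did, 0 had an unadjusted p under 0.05, and 0 passed with edgeR on recovered reads (0.377% of 16707 genes), DESeq2 or the other settings run. The median over the members was 0.06, equal to that of all genes at 0.06.

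In the SMART-seq libraries, 8 of the 10 members, all but Notch2 and Hes1, were split by the number of the mouse without overlap, 5 with number 2 above and 3 with it below. Of all 17547 genes tested, 43.6% were split in this way, 20.8% above and 22.8% below. This count was made after the values were seen. Notch1 was at 465 CPM in WT mouse 1 and 678 in the library labelled cKO mouse 1, and at 1154 and 1094 in mouse 2 of each group. Notch3 was at 91.9 and 186 CPM in the number 1 mice and 312 and 356 in number 2. The number 2 mice were higher for both receptors. Jag2 ran the other way, with 313 and 212 CPM in number 1 and 122 and 79.1 in number 2, and so did Dll1, with 26.3 and 18.7 against 9.32 and 6.15. Hey1 followed the receptors at 3.65 and 4.97 against 14.7 and 26.3 CPM, and Heyl at 0.429 and 3.22 against 13.0 and 8.16. Jag1 made up 58.2 and 67.4% of the summed ligands per kilobase in number 1 and 80.8 and 88.4% in number 2. Xist, which marks female cells, was at 3043 and 2841 CPM in number 1 and 7.52 and 64.5 in number 2. Same-numbered mice also have library names close in number, and the labels do not say whether they shared a litter or a batch. Melanocyte markers went the same way as the receptors, 6 genes in all, with summed levels of 27.3 and 25.7 CPM against 129 and 178. Hair germ markers (3822 and 4260 against 6547 and 5021) and, by little, bulge stem cell markers did so too. Mural markers (398 and 264 against 161 and 142), fibroblast markers (93.4 and 52.3 against 23.3 and 19.2) and, by little, immediate early genes ran the other way. The part of sex, of melanocytes or of any other difference between these mice was not tested.

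No member passed between the label groups in SMART-seq. Notch1 averaged 809.7 ± 487 CPM (WT) and 886 ± 294 CPM (labelled cKO), mean ± SD with n = 2 each, with a log2 fold change of 0.13 (SE 0.50, adjusted p = 1.00, edgeR). Notch2 was the 1 member with both libraries labelled cKO above both WT libraries, at 254 and 275 against 203 and 239 CPM (log2 0.26, SE 0.20, adjusted p = 1.00, edgeR), which held for 11.8% of all genes tested (24.3% in either direction). Hes1 had the tightest values, 75.4 and 78.1 CPM (WT) and 80.0 and 70.3 CPM (labelled cKO), with a log2 value of -0.03 (SE 0.18, adjusted p = 1.00, edgeR). The summed immediate early genes, set beside Hes1 in the other datasets, were at 11722 and 5494 CPM (WT) and 6740 and 6500 CPM (labelled cKO). Their part in the Hes1 values was not tested here either. Rbpj and Jag1, the other members split by mouse number, had overlapping label groups. Rbpj was at 125 and 70.4 CPM (WT) and 81.7 and 77.7 CPM (labelled cKO), and Jag1 at 415 and 485 against 420.1 and 568. The log2 values of the remaining members were 0.42 (Notch3), 0.13 (Jag1), -0.58 (Jag2), -0.51 (Dll1), -0.29 (Rbpj), 0.76 (Hey1) and -0.24 (Heyl). In edgeR, 0 of 10 members and 0% of 17547 genes passed, with 0 members and 179 genes at an unadjusted p under 0.05, and DESeq2 called 0 genes as well. With edgeR, leaving out the filter on low counts gave 30 genes past the threshold, none of them a member. The median over the members was 0.05, beside -0.02 for all genes.

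Whether the difference between WT and cKO itself differed between the bulge and each hair germ dataset was tested in joint fits. The SMART-seq libraries differ from the bulge in protocol as well as in the tissue of their label, which that fit cannot tell apart. Their cKO label was also not borne out, with Alkbh5 at 0.82 of WT against 0.03 in the bulge. For Notch1, the SMART-seq difference (labelled cKO minus WT) minus the bulge difference was -1.56 (SE 0.63, adjusted p = 0.735, edgeR). This did not pass, in a fit where 0.0413% of 19371 genes passed, 0.0103% higher and 0.031% lower. Without a filter on low counts it passed (-1.57, adjusted p = 0.00098, edgeR), where 513 genes of all did. Hes1 gave 0.73 (SE 0.39, adjusted p = 0.771, edgeR). Between hair germ SHERRY2 and bulge, Notch1 gave -0.54 (SE 0.90, adjusted p = 0.897, limma) and Hes1 -0.38 (SE 0.80, adjusted p = 0.922, limma). There 0.005% of 20005 genes passed and the median of all genes was 0.30. No member passed in either fit as designed, which does not show that the tissues respond alike.

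The other 49 genes of the pathway gave 1 call in the bulge. Of them 42 were tested, 0 rose and 1 fell, with 21 positive and 21 negative values and a median of -0.01, the same as for all genes. Dlk2, a noncanonical Delta-like protein that is known to dampen Notch1, fell from 102 and 71.1 CPM in WT to 39.5 and 39.6 in cKO (log2 -1.13, SE 0.20, adjusted p = 0.0301, edgeR). The groups were well apart, and the call was lost without WT mouse 1 (-0.85, adjusted p = 0.0570, edgeR). Dlk2 overlaps Abcc10 on the opposite strand, so its reads cannot be assigned with certainty. Psenen, the smallest subunit of gamma-secretase, was at 45.6 and 52.9 CPM in WT and 31.1 and 27.7 in cKO (log2 -0.75, SE 0.17, adjusted p = 0.0633, edgeR). DESeq2 called it (adjusted p = 0.0212), and so did edgeR with no filter on low counts (adjusted p = 0.0136) or with cKO mouse 1 left out (adjusted p = 0.0376). Psenen overlaps U2af1l4 on the opposite strand. Dtx4, a ubiquitin ligase of the Deltex family, was at 15.2 and 13.7 CPM in WT and 9.10 and 6.99 in cKO (log2 -0.85, SE 0.27, adjusted p = 0.138, edgeR).

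By role, none of the 10 cleavage genes, 4 tested sugar-transfer genes, 12 tested ubiquitin and endocytosis genes and 12 nuclear cofactors passed in the bulge. The examples given for each role were picked after their values were seen. Cleavage genes, which include the proteases Adam10 (0.21) and Adam17 (0.11), had a median log2 fold change of -0.06. The sugar-transfer enzymes, which tune how a receptor reads its ligands, ran from -0.27 (Lfng) to 0.41 (Poglut1). Ubiquitin and endocytosis genes, such as the ligand-activating Mib1 (0.08) and the receptor inhibitor Numb (0.18), had a median of -0.01. Nuclear cofactors, among them Maml1 (-0.06) and the repressor Spen (0.51), had a median of 0.02. Of the 4 further targets, Nrarp was tested, with 30.4 and 37.2 CPM in WT and 36.6 and 40.4 in cKO (log2 0.19, adjusted p = 0.627, edgeR). Nrarp is a feedback inhibitor that Notch itself induces.

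**Figure D4:**
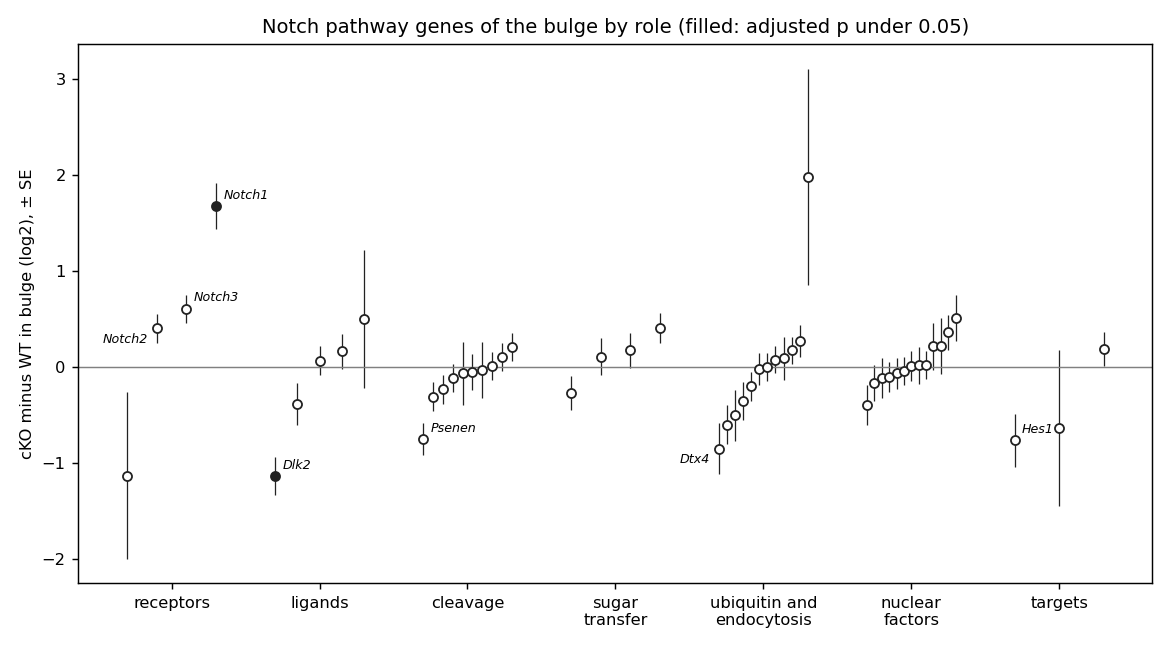
Difference between genotypes in the bulge (cKO minus WT, log2, ± SE) for each tested gene of the Notch pathway, members included, grouped by role and sorted within each role. Filled circles mark an adjusted p under 0.05 in edgeR, which 2 genes reached: Notch1 at 1.68 and Dlk2 at -1.13.

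In the hair germ, 0 of 48 tested further genes passed by SHERRY2 and 0 of 43 by SMART-seq. The lowest unadjusted p by SHERRY2 belonged to Dtx3 (log2 1.09), the Rbpj corepressor Cir1 (1.04) and the gamma-secretase subunit Ncstn (1.04), all with an adjusted p of 0.970 in limma. The median over the 48 genes was 0.34, with 35 positive and 13 negative values, beside 0.06 for all genes. Both medians rest on the deposited size factors, which put values 0.30 above TMM. What lies behind the gap between the medians was not tested. By SMART-seq, Dtx4 (0.56) and the ligand regulator Neurl1b (0.49) were among the genes with the lowest unadjusted p, with an adjusted p of 1.00 in edgeR. Dlk2, which fell in the bulge, was at 189 and 73.2 CPM in WT and 32.8 and 224 in cKO of hair germ SHERRY2. Its groups overlapped there. By SMART-seq its read counts were 111 and 14 (WT) and 121 and 0 (labelled cKO).

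Across the 8 bulge and SMART-seq libraries, with each dataset centred on its own mean, the pathway gene most like each member was found by Pearson's r of log2(CPM + 1). Libraries of a dataset share its protocol and table, and the genotype and mouse differences run through the values, which are a description. Each r is the highest over the other genes of the pathway, which favours high values, and no baseline r was worked out. Heyl had 0 to 3 reads in the bulge libraries, so its r rests mostly on SMART-seq. Notch1 and Notch2 were each most like the other (r = 0.91), Notch3 was most like Fbxw7 (0.90), Jag2 most like Dll1 (0.93) and Dll1 most like Dlk2 (0.95). Jag1 and Hey1 were each most like the other (0.93), Heyl was most like Nrarp (0.93) and Rbpj most like Dlk1 (0.96), which had 0 to 30 reads a library. The lowest of these values was that of Hes1 with Dtx2 (0.70).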

How the data were processed

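RNA-seq of sorted hair follicle stem cells was used from 3 gene tables, 4 libraries each. The bulge and SMART-seq tables hold raw counts of reads per gene as deposited, and the bulge table also gives FPKM per the file headers. The hair germ SHERRY2 table holds a signal that the authors made by dividing read counts by a size factor per library. It also holds the authors' log2 fold changes, the deposited p-values and a deposited Wald score, whose sign is opposite to that of the fold change and which was not used. Per the submitters' processing notes, reads were handled with FastQC, Trim Galore, fastp, STAR, HISAT2, SAMtools, featureCounts, Subread and DESeq2 on GRCm38, mm10 or GRCm39, with no versions. The sources used here do not tie a tool to a step or say whether counting used strand.

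For the bulge and for SMART-seq, the test was edgeR 4.0.16 (TMM, filterByExpr, quasi-likelihood) in R 4.3.3. For hair germ SHERRY2 it was limma 3.58.1 (trend = TRUE) on the log2 of the normalized count plus 1, over genes with a mean of at least 1. All of these values gave whole reads when divided by the value of 1 read (100%, tolerance 0.01 reads), and edgeR on those reads was an alternative. Differences between datasets were tested by a dataset-by-genotype term. DESeq2 1.42.0 was an alternative. P-values were two-sided and adjusted by Benjamini-Hochberg over all genes tested, with a threshold of 0.05. The fits were run on simulated counts with known fold changes as a check of the code. The spread there was set and not taken from these libraries, so that check does not show which differences they could detect. All 10 members were named in every dataset, and of the other pathway genes those past the threshold or, where fewer than 3 passed, the 3 with the lowest unadjusted p, of which 1 is not reported here. The members and lists were chosen with earlier results of these data known. RefSeq promoter windows were searched on both strands.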

Additional observations from a re-analysis of the deposited data

How the results depend on the processing

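Notch1 in the bulge was past the threshold under every setting run. Of the counts of calls recomputed with all mice, 40 stayed within 1.5 times and 20 did not. A count of 0 in both settings was taken as unchanged, and most of the 40 were of this kind. Among the counts above 0, more moved than stayed. Of the single-gene values 223 kept direction and call, 7 passed newly and 4 turned. Calls in the bulge numbered 476 as designed, 1191 with DESeq2 and 1549 without a filter on low counts. Members called numbered 2 with DESeq2, 3 without the filter and 2 with a replicate block, and pathway genes with members 4 and 5 with the first 2 of these. SMART-seq gave 30 calls without the filter. Hair germ SHERRY2 gave 3 calls as designed, 0 with a pseudocount of 0.1, 0 without a filter, 0 in the authors' deposited DESeq2 table, 63 with edgeR on recovered reads (Notch3 at -0.17) and 5 with the block. The SMART-seq interaction gave 8 calls, 513 without the filter, of which 1 was a member (Notch1, also the 1 call among pathway genes with members), and 3 with the block. The SHERRY2 interaction gave 1 call, 0 with a pseudocount of 0.1, 0 without a filter and 31 with edgeR on reads, where Jag1 was at -0.11 and Dll1 at -0.44. Same-numbered mice did not deviate together in the bulge (r = -0.07, across genes). In hair germ SHERRY2 they deviated in opposite directions (-0.46), and in SMART-seq together to a degree (0.23). With 2 mice a group and no label that names a shared animal, litter or batch, the numbers were not taken as pairs. The block brought Hes1 in the bulge past the threshold (adjusted p = 0.0490, edgeR) and turned Heyl in SMART-seq to 0.81. With each mouse left out in turn, bulge calls ran from 218 to 1601 for all genes, 1 to 2 for members and 1 to 4 for the pathway. Log2 values in the bulge ran from -0.039 to 0.17 (Jag1), -0.084 to 0.031 (Rbpj), -1.36 to 0.76 (Hey1). In SMART-seq they ran from -0.38 to 0.94 (Notch1), -0.21 to 1.57 (Notch3), -0.10 to 0.35 (Jag1), -1.45 to 0.25 (Jag2), -1.52 to 0.42 (Dll1), -0.64 to 0.18 (Rbpj), -0.11 to 0.058 (Hes1), -0.88 to 2.10 (Hey1), -1.21 to 3.70 (Heyl), -0.051 to 0.99 (Dtx4). In hair germ SHERRY2 all calls ran from 0 to 105, and log2 values from -0.56 to 0.52 (Notch2), -0.40 to 0.70 (Notch3), -1.07 to 0.53 (Dll1), -1.77 to 0.44 (Hey1), -0.12 to 2.20 (Cir1). The SMART-seq interaction ran from 0 to 18 calls and from -0.84 to 0.94 (Notch3), -0.18 to 0.25 (Jag1), -1.64 to 0.069 (Jag2), -1.17 to 0.81 (Dll1), -0.62 to 0.19 (Rbpj), -0.27 to 2.69 (Hey1). The SHERRY2 interaction ran from 0 to 10 calls and from -1.14 to 0.064 (Notch1), -0.99 to 0.086 (Notch2), -1.03 to 0.073 (Notch3), -0.74 to 0.87 (Dll1), -1.09 to 0.33 (Hes1), -1.44 to 0.76 (Hey1). With a mouse left out, 1 group has a single library, which is assumed to vary like the others. The cause of these changes was not tested. The depth of the hair germ SHERRY2 libraries limits Hey1 and Heyl, which had 2 to 17 reads a library there.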
